A study of Rattus norvegicus with 24 samples.

Results

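Immediate early transcription factors were followed in the heart septum of 24 rats, on day 28 after cardiac ischemia-reperfusion. The family was fixed as 6 named genes, Fos, Jun, Junb, Egr1, Atf3 and Myc, each given by its Ensembl rat ID and the chromosome on which it must lie. Of these IDs 5 were found on the stated chromosome among the 30562 genes of the deposited count table, and Junb was not analysed here. All 5 passed the filter on low counts that left 17347 genes for testing. No measured value entered the choice, but it was made with earlier results of these data known, so p-values are adjusted over all 17347 genes and never over the family alone.

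Immediate early genes are transcribed within minutes of a stimulus, without new protein synthesis, and their mRNAs are short-lived. Fos and Jun proteins pair to form the AP-1 transcription factor. Egr1 is a zinc-finger factor of the same early response, Atf3 a stress-induced bZIP factor that binds cAMP response elements and AP-1 sites, and Myc a growth-associated bHLH factor. In the heart these genes are known to respond to stretch, catecholamines, ischemia and the excision of the tissue itself, so their mRNA is also read as a sign of stress and handling at collection. The labels used here give no interval between death and preservation of the septum for any rat.

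The rats were Sprague-Dawley, and all received an intracerebroventricular infusion and the same cardiac injury. The 4 groups of 6 were BAT ablation with leptin, BAT sympathetic denervation with leptin, intact BAT with leptin, and intact BAT with vehicle. BAT is brown adipose tissue, the heat-producing fat depot, and leptin is a satiety hormone released by fat cells, whose brain receptors lie largely in the hypothalamus. No operated group with vehicle and no uninjured group was analysed here, so a difference between an operated leptin group and vehicle combines the operation with the hormone. Ages were not given in the labels, and every library has its own rat number, so the spread within a group is a spread between animals.

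The libraries held 71587993 to 122910706 assigned reads, of which 23.1% to 45.9% came from the mitochondrial chromosome. The labels number each rat, and the 7 rats with the highest numbers form a set that stands apart from the 17 lower-numbered rats in earlier results of these data. With the group in the model, edgeR called 67.2% of all tested genes different between these sets. The higher-numbered set holds 1 rat with BAT ablation, 2 with denervation, 1 with intact BAT and leptin, and 3 with vehicle. Each comparison is therefore given as designed, with the groups alone in the model, and again with a term for the set. What the set is was not stated in the sources used here. The gene IDs could not be paired with names beyond the family, so the septum was not checked against cell type markers. In bulk tissue, fewer cells of a type and less RNA per cell cannot be told apart.

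The promoter of Egr1 is shown because Egr1 had the largest differences between groups within the family, and because its early response is known to run through serum response factor at CArG boxes. It is the RefSeq sequence on GRCr8 at chr18:26736828-26737127, plus strand, 250 bases before to 50 bases after the annotated start. Capitals mark 2 CArG boxes and 2 half-sites of the cAMP response element, TGACGT, here read on the opposite strand.
Egr1 promoter: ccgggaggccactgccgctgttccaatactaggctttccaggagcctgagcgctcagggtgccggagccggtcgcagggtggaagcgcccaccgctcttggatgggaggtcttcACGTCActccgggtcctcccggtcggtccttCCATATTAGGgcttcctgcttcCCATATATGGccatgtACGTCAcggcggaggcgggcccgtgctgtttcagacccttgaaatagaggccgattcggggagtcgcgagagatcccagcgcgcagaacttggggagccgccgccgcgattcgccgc
The CArG boxes begin at -105 and -83 from the gene start and the half-sites at -136 and -67, with no overlap between them. Searched on both strands, a CArG box is present in 1.64% of the 33469 promoters of this length in the RefSeq table, and 7 promoters (0.0209%) hold at least 2. The half-site is present in 7.94% of those promoters, and at least 2 copies in 2.2%. A full element TGACGTCA holds a half-site on each strand and counts as 2 copies here. The 2.2% thus includes promoters with a single full element and is not the share with 2 separate half-sites. The full element TGACGTCA, found in 1.83% of promoters, the AP-1 site TGANTCA, found in 7.33%, and TATAAA, found in 14.2%, were not matched by any letters of this window. Of the family members found, this promoter was the only one in the table.

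By mean level per kilobase of exon the family ranked in the order Egr1, Jun, Atf3, Fos and Myc. The means over 24 libraries were 31.1 CPM per kb for Egr1 and 27.4 CPM per kb for Jun, at the 91.9th and 90.6th percentile of tested genes. Atf3 averaged 8.79, Fos 8.55 and Myc 5.34 CPM per kb, at percentiles 70.7, 70.1 and 59.4. Egr1 ranged over the 24 libraries between 3.75 and 79.4 CPM per kb and Jun between 15.6 and 47.1 CPM per kb, so the ranges of these neighbours in the order overlapped. By medians both neighbouring pairs changed places, with 25.3 CPM per kb for Jun and 21.5 for Egr1, and 6.78 for Fos and 6.38 for Atf3. In the intact leptin group the mean of Jun, 24.7 CPM per kb, was also above that of Egr1, 11.1 CPM per kb. Ranges also overlapped for Atf3 with 2.33 to 26.1, Fos with 0.889 to 24.2 and Myc with 3.34 to 10.2 CPM per kb. All further levels are read counts scaled to TMM-adjusted library size (CPM), compared within a gene only.

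**Figure D1:**
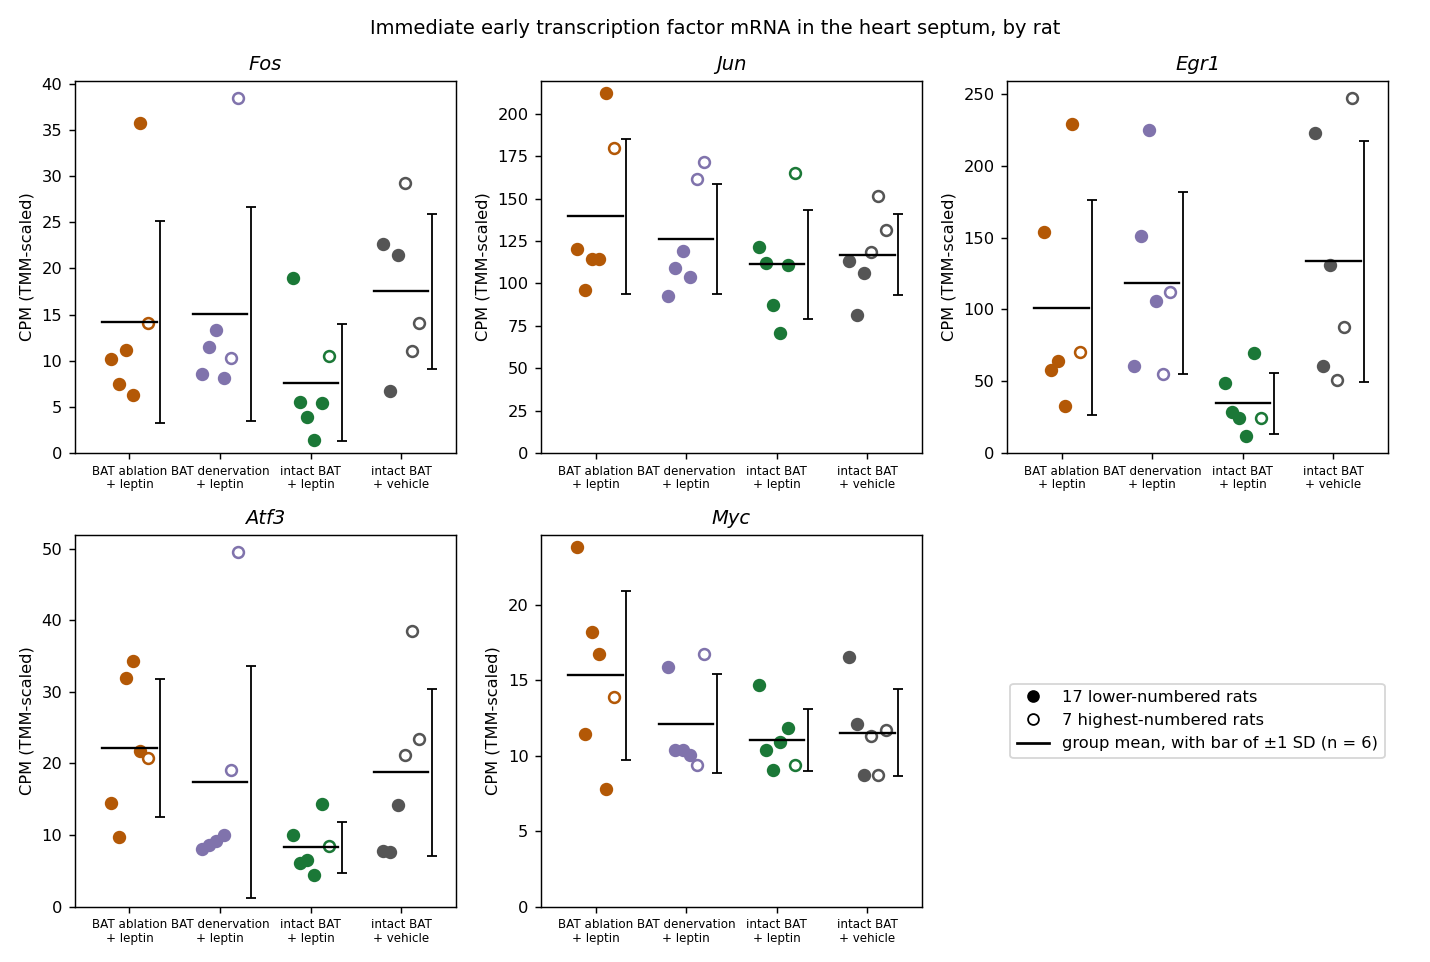
Level of each gene in CPM (vertical axis) in every rat, by group; filled points are the 17 lower-numbered rats, open points the 7 highest-numbered, lines are group means and bars ±1 SD (n = 6). Egr1 lies at 11.7 to 69.8 CPM in intact BAT with leptin and reaches 229, 225 and 247 CPM in the ablation, denervation and vehicle groups, with overlap between all groups.

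Egr1 was lowest in rats with intact BAT and leptin. This gene (ENSRNOG00000019422, chromosome 18, 26462981 to 26466766, plus strand, 2 exons, mRatBN7.2) had 32.7 CPM in the lowest library, a median of 67.3 and 229 in the highest with BAT ablation. With BAT denervation the lowest, median and highest were 55.0, 109 and 225 CPM, with intact BAT and leptin 11.7, 26.3 and 69.8 CPM, and with vehicle 50.7, 110 and 247 CPM. Of the intact leptin libraries 5 of 6 lay below every vehicle library, while 3 of 6 ablation and 4 of 6 denervation libraries lay above every intact leptin library. The groups overlapped in each of these comparisons. No family member separated its groups without overlap in any comparison, against 0.911% of all tested genes for ablation, 0.951% for denervation and 1.46% for leptin.

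Group means of Egr1 were 101.3 ± 74.8 CPM with ablation, 118 ± 63.2 with denervation, 34.5 ± 21.1 with intact BAT and leptin, and 133 ± 83.9 with vehicle (SD, n = 6 each). In edgeR's quasi-likelihood test as designed, no Egr1 difference passed the adjusted threshold of 0.05. For BAT ablation against intact BAT with leptin the log2 difference was 1.56 ± 0.51 (SE), a fold of 2.94 with a 95% interval of 1.42 to 6.08 and an adjusted p of 0.0904. For denervation against intact BAT with leptin it was 1.78 ± 0.51, a fold of 3.43 with an interval of 1.65 to 7.14 and an adjusted p of 0.139. Leptin against vehicle, both with intact BAT, gave -1.95 ± 0.51, a fold of 0.258 with an interval of 0.124 to 0.539 and an adjusted p of 0.0602. These 3 comparisons share the 6 intact leptin libraries, so they do not bear on Egr1 separately. Of those 6 rats 4 have close numbers, 56 to 62, so rat number and group are partly confounded for Egr1 too.

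With the rat-number set in the model all 3 Egr1 differences passed. Egr1 was then higher with ablation than in intact leptin rats by 1.55 ± 0.48 (log2, adjusted p 0.0284) and higher with denervation by 1.84 ± 0.49 (adjusted p 0.0348). It was lower with leptin than with vehicle, at -2.13 ± 0.51 (adjusted p 0.0223). The log2 differences moved little, while the share of all genes called changed much more, as given with the family counts below. Means within the sets ran the same way. In the lower-numbered rats Egr1 averaged 107 CPM with ablation, 136 with denervation, 36.5 with intact BAT and leptin, and 138 with vehicle. In the higher-numbered rats the means were 70.4, 83.4, 24.3 and 129 CPM in the same order of groups, the ablation and intact leptin values being 1 library each. In the 17 lower-numbered rats alone the log2 differences were 1.56 (adjusted p 0.0673), 1.90 (adjusted p 0.0976) and -1.92 (adjusted p 0.149) for ablation, denervation and leptin, and none passed.

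Single libraries moved Egr1 across the threshold in both models. As designed, leptin against vehicle passed without intact leptin replicate 5 (adjusted p 0.0361), intact leptin replicate 6 (0.0251) or ablation replicate 4 (0.0479). Ablation against intact BAT passed without intact leptin replicate 5 (0.0434) or ablation replicate 4 (0.0491), and denervation against intact BAT ranged between 0.0621 and 0.352. With the set term, leptin against vehicle was lost without intact leptin replicate 2 or vehicle replicate 3, the adjusted p over the 24 omissions running between 0.00815 and 0.0662. Ablation against intact BAT was lost without intact leptin replicate 2, 3 or 4 or ablation replicate 1 or 5 (range 0.0117 to 0.0768). Denervation against intact BAT was lost without intact leptin replicate 1, 2 or 4 or denervation replicate 2, 3, 4 or 6 (range 0.0127 to 0.0843).

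**Figure D2:**
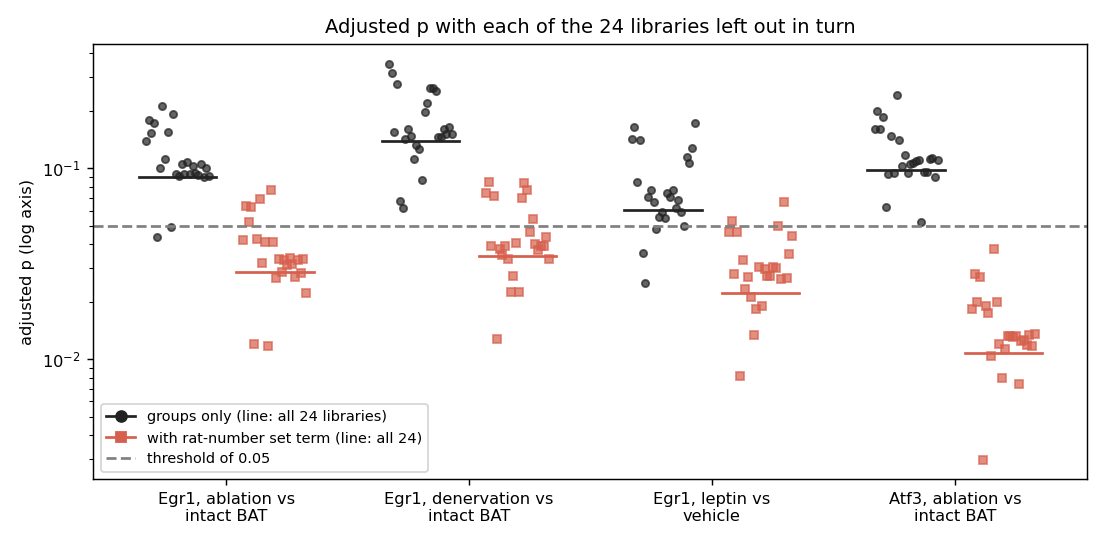
Adjusted p (log axis) of 4 differences with each of the 24 libraries left out, in the model of groups alone (circles) and with the rat-number set term (squares); lines are the fits to all 24 libraries and the dashed line the threshold of 0.05. With the set term Atf3 stays under the threshold in 24 of 24 omissions, between 0.00298 and 0.0378, and the Egr1 differences cross it. The set term does not adjust for rat numbers within a set.

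Atf3 was highest with BAT ablation in the lower-numbered rats and followed the rat-number set in the other operated group and in vehicle. This gene (ENSRNOG00000003745, chromosome 13, 102751321 to 102764631, minus strand, 4 exons) had 9.70, 21.3 and 34.3 CPM as lowest, median and highest with ablation. With denervation these were 7.99, 9.57 and 49.5 CPM, with intact BAT and leptin 4.41, 7.46 and 14.3 CPM, and with vehicle 7.64, 17.7 and 38.4 CPM. With ablation 5 of 6 libraries lay above every intact leptin library, and the sixth overlapped them. The means were 22.2 ± 9.59 CPM with ablation, 17.4 ± 16.3 with denervation, 8.29 ± 3.54 with intact BAT and leptin, and 18.7 ± 11.7 with vehicle (SD, n = 6 each).

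As designed, Atf3 was 1.42 ± 0.47 higher on the log2 scale with ablation than in intact leptin rats, a fold of 2.67 with a 95% interval of 1.35 to 5.27, and missed the threshold at an adjusted p of 0.0984 (edgeR). Given the set term it was 1.43 ± 0.37 higher and passed at 0.0108. It also passed in the 17 lower-numbered rats alone, at 1.44 with an adjusted p of 0.0219. With the rat number as a linear covariate in place of the set, the log2 difference was 0.65 and did not pass (adjusted p 0.192). Rat number and ablation are partly confounded in the lower set, so for Atf3 they cannot be fully told apart. The lower-numbered rats averaged 22.4 CPM with ablation and 8.26 CPM with intact BAT and leptin, against 20.8 and 8.43 CPM in the 1 higher-numbered rat of each group. For denervation against intact BAT the log2 difference was 1.07 ± 0.47 as designed (adjusted p 0.265) and 0.55 ± 0.38 with the set term (adjusted p 0.361). For leptin against vehicle it was -1.18 ± 0.47 (adjusted p 0.145) and -0.55 ± 0.39 (adjusted p 0.389). In the lower-numbered rats denervation averaged 8.95 CPM, against 8.26 CPM in intact leptin rats, and vehicle averaged 9.85 CPM. In the higher-numbered rats denervation averaged 34.3 CPM and vehicle 27.6 CPM.

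Atf3 also ran with depth among the 17 lower-numbered rats. Its log2 CPM correlated with total reads with Pearson's r of 0.712 and Spearman's rho of 0.733 (permutation p 0.00106, adjusted over 15 relations 0.0159). Without the 2 libraries farthest from the median total, r was 0.658. In those rats total reads with ablation were 92896201, 77894258, 108084377, 98673142 and 98123498, in replicates 1 to 5. With intact BAT and leptin they were 100371778, 82399392, 81050994, 83644716 and 103039373, in the same order. The ranges overlapped, but most of these ablation libraries were deeper than most of these intact leptin libraries, so depth was not matched. The part of depth in the Atf3 difference was not tested. None of the other 14 relations of the family with total reads, mitochondrial read share or the length gradient of a library passed, the next lowest adjusted p being 0.377 for Jun with total reads.

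Fos had the same order of group means as Egr1, and no difference passed in edgeR as designed. This gene (ENSRNOG00000008015, chromosome 6, 105121170 to 105124036, plus strand, 4 exons) had 6.24, 10.7 and 35.8 CPM as lowest, median and highest with ablation and 8.16, 10.9 and 38.5 CPM with denervation. The values were 1.41, 5.44 and 19.0 CPM with intact BAT and leptin and 6.67, 17.8 and 29.2 CPM with vehicle. A single library in each operated group lay above every intact leptin library, and 4 of 6 intact leptin libraries lay below every vehicle library, the groups overlapping throughout. The means were 14.1 ± 11.0, 15.0 ± 11.6, 7.61 ± 6.33 and 17.5 ± 8.38 CPM with ablation, denervation, intact BAT and leptin, and vehicle (SD, n = 6 each). The log2 differences were 0.89 ± 0.53 for ablation against intact BAT (edgeR adjusted p 0.405), 0.98 ± 0.53 for denervation against intact BAT (0.361) and -1.20 ± 0.54 for leptin against vehicle (0.182). None passed with the set term either, at adjusted p of 0.206, 0.312 and 0.200. With that term Fos passed for ablation against intact BAT only when intact leptin replicate 1 was left out (adjusted p 0.0416), the library with the highest Fos of its group.

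Jun, the AP-1 partner of Fos, passed in no comparison between groups. This gene (ENSRNOG00000026293, chromosome 5, 109893145 to 109897656, minus strand, a single exon) had 96.1, 117 and 212 CPM as lowest, median and highest with ablation and 92.4, 114 and 172 CPM with denervation. The values were 70.6, 112 and 165 CPM with intact BAT and leptin and 81.5, 116 and 151.6 CPM with vehicle, and the medians of the 4 groups lay within 6 CPM of each other. As designed the log2 difference was 0.33 ± 0.23 for ablation against intact BAT (95% interval -0.14 to 0.79, edgeR adjusted p 0.487) and 0.18 ± 0.23 for denervation against intact BAT (interval -0.28 to 0.65, adjusted p 0.699). For leptin against vehicle it was -0.07 ± 0.23 (interval -0.54 to 0.39, adjusted p 0.853), and 0.10 ± 0.17 with the set term (adjusted p 0.749), on the other side of 0.

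Myc likewise passed in no comparison as designed. This gene (ENSRNOG00000004500, chromosome 7, 93593705 to 93598630, plus strand, 3 exons) had 7.80, 15.3 and 23.8 CPM as lowest, median and highest with ablation and 9.36, 10.4 and 16.8 CPM with denervation. In intact leptin rats these were 9.07, 10.6 and 14.7 CPM, against 8.69, 11.5 and 16.6 CPM with vehicle. The ablation group held the lowest and the highest Myc value of the 24 libraries. Log2 differences were 0.47 ± 0.23 for ablation against intact BAT (95% interval 0.00 to 0.94, edgeR adjusted p 0.278), 0.14 ± 0.23 for denervation against intact BAT (adjusted p 0.780) and -0.06 ± 0.23 for leptin against vehicle (adjusted p 0.883). Under the set term the adjusted p for ablation was 0.132, and it passed only without ablation replicate 5 (0.0313), the lowest library.

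Counted over the family as designed, edgeR called 0 of 5 genes in BAT ablation against intact BAT, where 3.03% of all tested genes were called. At an unadjusted p under 0.05 there were 3, Egr1, Atf3 and Myc, beside 3118 of the 17347 genes. In denervation against intact BAT 0 of 5 were called against 0% of all genes, and 2, Egr1 and Atf3, were under the unadjusted threshold, beside 2836 of all genes. In leptin against vehicle 0 of 5 were called against 0.674% of all genes, and 3, Fos, Egr1 and Atf3, were under the unadjusted threshold, beside 4059 of all genes. DESeq2 called 2, 1 and 1 of the 5 in these comparisons, and 1267, 436 and 1538 of the 30562 genes in the table. Limma-voom with sample weights called 1, 1 and 3 of the 5, and 3022, 3955 and 10526 of the 17347 genes. Its 3 for leptin against vehicle were Fos (-1.66, voom adjusted p 0.00422), Egr1 (-1.78, 0.00213) and Atf3 (-1.67, 0.00125).

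The set term raised the calls for the family and for all genes alike. With it, Egr1 and Atf3 were called with ablation against 18.6% of all genes, Egr1 with denervation against 6.65%, and Egr1 with leptin against 6.13%. Across the 4 groups at once, edgeR called 0 of 5 genes as designed, against 0.0692% of all genes. Egr1 had an adjusted p of 0.134 and Atf3 of 0.262, and these 2 were under the unadjusted threshold, beside 3102 of all genes. Egr1 passed this test with the set term (adjusted p 0.0373, against 10.3% of all genes) and Atf3 did not (0.0504).

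The log2 differences of the family leaned one way in each of these comparisons. With ablation against intact BAT all 5 were above 0 with a median of 0.89, against a median of -0.02 over all tested genes. With denervation all 5 were above 0 with a median of 0.98, against 0.02 over all genes. With leptin against vehicle all 5 were below 0 with a median of -1.18, against -0.03 over all genes. With the set term the medians were 0.92, 0.55 and -0.55, and Jun then lay above 0 for leptin against vehicle. The 5 genes are not independent of each other, as their levels across rats show below, and no test over the family was made.

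**Figure D3:**
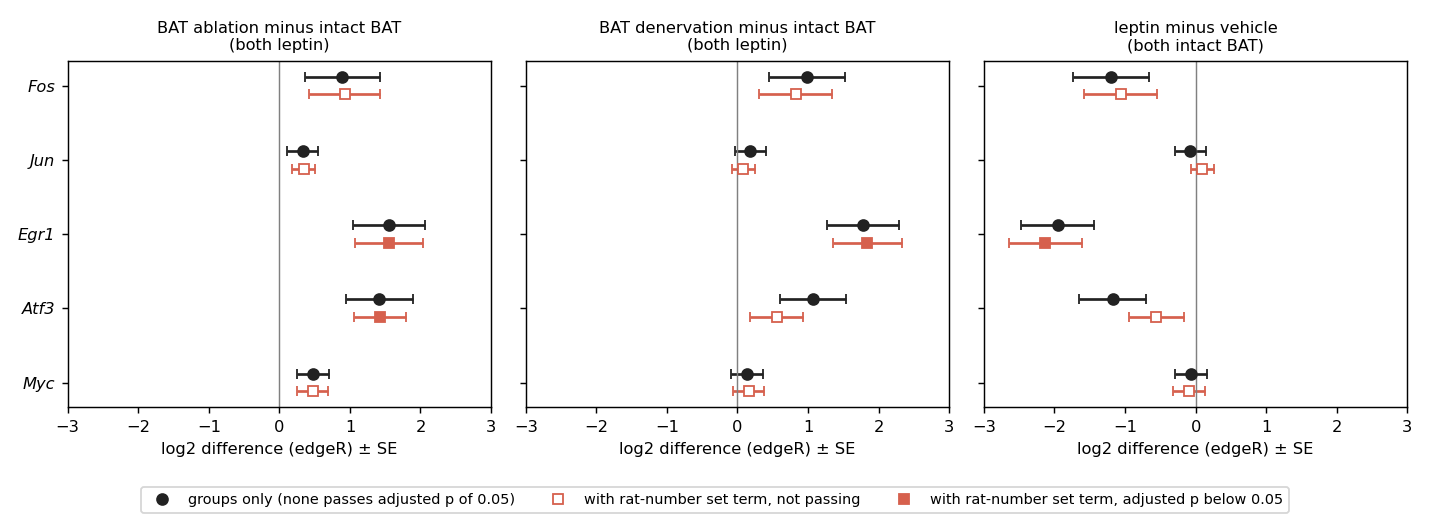
Log2 difference ± SE (edgeR, horizontal axis) of each gene for BAT ablation against intact BAT, BAT denervation against intact BAT and leptin against vehicle, with groups alone in the model (circles) and with the rat-number set term (squares, filled where the adjusted p is below 0.05). All Egr1 values lie at least 1.55 from 0, and those of Jun and Myc reach 0.47.

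The operated leptin groups and vehicle were not separated by any family member. For ablation with leptin against intact BAT with vehicle, edgeR called 0 of 5 genes, against 0% of all genes, and none had an unadjusted p under 0.05. DESeq2 and voom also called none of the 5, while DESeq2 called 17 and voom 9663 of all genes. No member separated these groups, against 0.242% of all genes. Egr1 differed by -0.40 on the log2 scale with a 95% interval of -1.43 to 0.63, which still allows a fold between 0.372 and 1.55. The other log2 differences were -0.31 for Fos, 0.25 for Jun, 0.24 for Atf3 and 0.41 for Myc, with adjusted p between 0.471 and 0.795. Under the set term Jun was 0.44 and Atf3 0.88 above vehicle, at unadjusted p of 0.0149 and 0.0358 and adjusted p of 0.526 and 0.562.

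Denervation with leptin against vehicle likewise gave 0 calls by edgeR and DESeq2, with 0% of all genes called by edgeR and none of the 5 at the unadjusted threshold. Egr1 differed by -0.17 (95% interval -1.20 to 0.85), Fos by -0.22, Jun by 0.11, Atf3 by -0.11 and Myc by 0.07. Voom called 1, Atf3, with 8051 of all genes. Its Atf3 difference was -1.20 (voom adjusted p 0.00729), far from the -0.11 of edgeR as designed and the -0.00056 of edgeR with the set term. No member separated the groups, against 0.306% of all genes. For ablation against denervation edgeR called 0 of 5, against 0% of all genes, and DESeq2 and voom also called none, while DESeq2 called 0 and voom 54 of all genes. No member separated these groups, against 0.19% of all genes. The differences were -0.09 for Fos, 0.14 for Jun, -0.22 for Egr1, 0.35 for Atf3 and 0.34 for Myc, none at an unadjusted p under 0.05. Under the set term Atf3 was 0.88 higher with ablation than with denervation, at an unadjusted p of 0.0312 and an adjusted p of 0.569.

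The rat-number set itself went with 2 of the 5 genes, against 67.2% of all tested genes. Higher-numbered rats had more Atf3 than lower-numbered rats, by 1.19 ± 0.31 on the log2 scale (edgeR adjusted p 0.00182), and more Jun, by 0.55 ± 0.13 (adjusted p 0.000631), with the group in the model. Jun averaged 154 ± 22.2 CPM in the 7 higher-numbered and 111 ± 29.9 CPM in the 17 lower-numbered rats, and Atf3 25.8 ± 13.7 and 12.9 ± 8.67 CPM (SD). Fos (0.53 ± 0.41, adjusted p 0.254), Egr1 (-0.46 ± 0.40, adjusted p 0.319) and Myc (-0.11 ± 0.18, adjusted p 0.602) did not pass. Rat numbers of 3 vehicle libraries and of 1 intact leptin library lie in the higher set, so for Atf3 the set and the leptin comparison are partly confounded.

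Within groups, Fos, Egr1 and Atf3 varied more between rats than most genes, and Jun less. Myc varied less than most genes as designed but more once the rat-number set was removed. The SD of log2 CPM within groups was 0.96 for Fos, 0.92 for Egr1 and 0.83 for Atf3, at percentiles 79.8, 77.1 and 71.6 of all tested genes, whose median was 0.57. It was 0.40 for Myc and 0.39 for Jun, at percentiles 30.2 and 28.7. With the rat-number set also removed the SDs were 0.94, 0.92, 0.67, 0.41 and 0.28 for Fos, Egr1, Atf3, Myc and Jun, against a median of 0.36. The percentiles were then 89.2 for Fos, 88.4 for Egr1, 77.8 for Atf3, 56.3 for Myc and 35.2 for Jun. The highest library of a group held 13.5 times the Fos of the lowest with intact BAT and leptin, and 7.00 times the Egr1 with ablation.

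Among the 17 lower-numbered rats Fos and Egr1 were high in the same animals. Their log2 CPM correlated there with Pearson's r of 0.829 and Spearman's rho of 0.767 (permutation p 2.00e-05 from 100000 resamples, adjusted over 10 pairs 0.0002). Without the 2 libraries farthest from the median Fos, r was 0.697 (permutation p 0.00439). Fos and Jun gave r of 0.766 and rho of 0.620 (adjusted p 0.00485), which fell to 0.490 without the 2 farthest libraries (permutation p 0.0632). Jun with Egr1 (r 0.627, rho 0.517, adjusted p 0.0196) and Jun with Atf3 (r 0.590, rho 0.654, adjusted p 0.0327) fell to 0.368 and 0.425. The last 3 relations were thus weaker without those libraries. By permutation of ranks, Fos with Jun (adjusted p of rho 0.0296) and Jun with Atf3 (0.0277) passed, and Jun with Egr1 did not (0.0897). Without intact leptin replicate 3 or replicate 4, the libraries with the lowest Fos, 2 of the 10 pairs passed, in place of 4. With group means subtracted 3 passed.

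Among the lower-numbered rats Atf3 passed with Jun, as given above, but not with Fos or Egr1, and Myc with no member. Atf3 gave r of 0.429 with Fos (rho 0.382, adjusted p 0.170) and 0.295 with Egr1 (rho 0.392, adjusted p 0.358). Myc gave r between -0.074 and 0.302 with the other 4 genes, none of which passed. In the 7 higher-numbered rats none of the 10 pairs passed in exact permutation tests, the lowest adjusted p being 0.432. There Fos and Egr1 gave r of 0.228 (rho 0.464), and Egr1 and Atf3 0.669 (rho 0.786). No r over all 24 rats is given, because the sets stand apart.

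**Figure D4:**
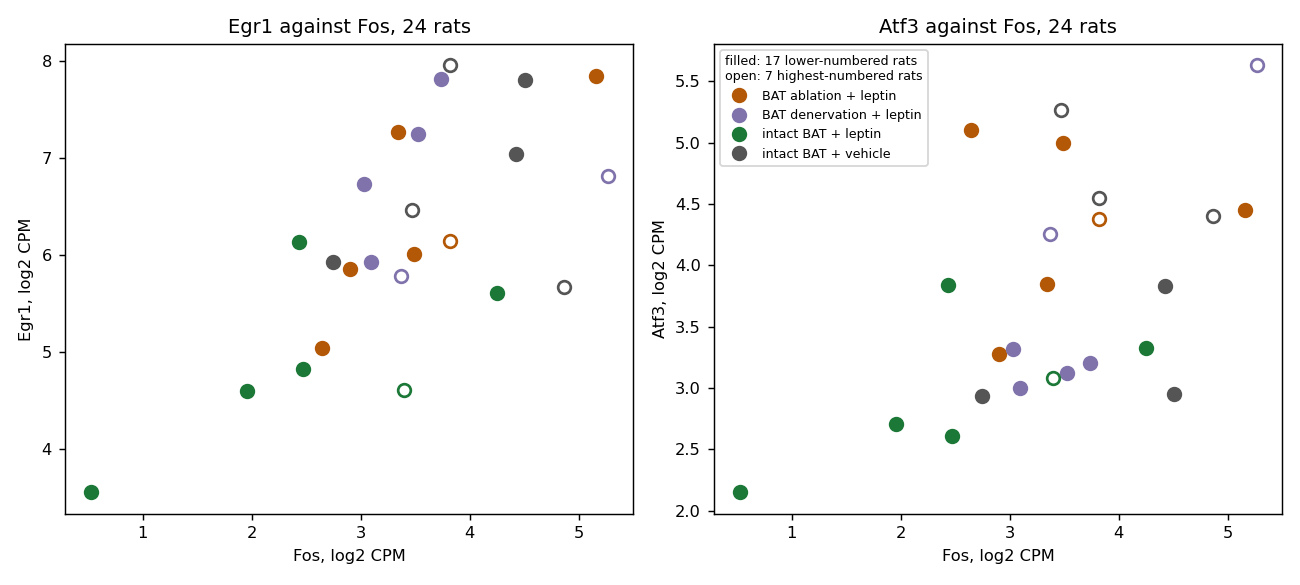
Log2 CPM of Egr1 (left) and Atf3 (right) against log2 CPM of Fos in each of 24 rats, coloured by group; filled points are the 17 lower-numbered rats, open points the 7 highest-numbered. Among filled points Egr1 follows Fos with r of 0.829 and Atf3 with r of 0.429 (n = 17).

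Measured as likeness over the 24 libraries after subtraction of each set's mean, Egr1 ranked 5th of 17346 other genes for Fos (r 0.72). Jun ranked 26th for Fos, and Fos 22nd for Jun (r 0.62). From the side of Egr1, Fos ranked 34th. Atf3 ranked 407th and Myc 5758th for Fos. The genes most like any member were ENSRNOG00000019688 on chromosome 18 for Myc (r 0.89) and ENSRNOG00000000640 on chromosome 20 for Egr1 (r 0.88). The second of these lies at 21051277 to 21055562 on the minus strand of mRatBN7.2 and averaged 7.57 CPM with ablation, 9.92 with denervation, 4.08 with intact BAT and leptin, and 11.7 with vehicle. These likenesses are descriptions across libraries that share group, set and depth.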

How the data were processed

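The libraries were paired-end messenger RNA, per the labels' protocols. The authors deposited whole-number counts of reads per gene. The submitters' processing notes name STAR 2.7.10a and featureCounts 2.0.2, whereas per the file header featureCounts 2.0.6 was run on Ensembl 113 (mRatBN7.2). The header shows no strand option and none to count a pair once, so mates were counted separately. No annotated gene overlaps a family member. Another 5 count columns fit none of the listed samples and were left out.

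Groups and rat numbers came from the labels, and no 2 libraries were identical. All 24 libraries entered 1 edgeR 4.0.16 model (R 4.3.3, robust quasi-likelihood, TMM, filterByExpr, Benjamini-Hochberg at 0.05 over 17347 genes). SE came from the F statistic. Log2 CPM used a prior count of 2. The length gradient compares genes of the longest and the shortest of 5 exonic length classes in a library, as the difference of their median centred log2 CPM. DESeq2 1.42.0, limma 3.58.1, other scalings and covariates, and each library left out were alternatives. The model was tested on simulated data, which held no rat-number set effect and so do not bear on how it handles the set.

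The members, the lists, the boundary between the rat-number sets and the alternatives were chosen with earlier results of these data known. Named genes are the members and, by rule, the 2 most alike genes. Lists of other early genes, upstream factors and cell type markers were not run because IDs could not be paired with names. Replicate numbers were not taken to pair the libraries.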

Additional observations from a re-analysis of the deposited data

Results flagged for a closer look

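Dixon's criterion was applied to the CPM of 20 sets of a family member and a group. In 3 of them the highest library lay far apart from the other 5 of its group. Chance alone meets the criterion in about 1 in 20 groups only if values are normally distributed, which was not tested. The 3 of 20 can therefore not be set against that rate, and the criterion was not applied to log2 CPM. Fos in BAT ablation replicate 5 was 35.8 CPM, with the next highest library at 14.1 and the lowest at 6.24 CPM. Fos in BAT denervation replicate 6 was 38.5 CPM, with the next at 13.3 and the lowest at 8.16 CPM. In the same library Atf3 was 49.5 CPM, with the next at 19.0 and the lowest at 7.99 CPM. That rat belongs to the higher-numbered set, and its Egr1, 112 CPM, lay within its group. The rat with the next highest Atf3 of the group, 19.0 CPM, is of the higher-numbered set too.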

How the results depend on the processing

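As designed edgeR called 0 of the 5 genes in each comparison, and scaling by RLE, by the upper quartile or not at all, leaving out mitochondrial reads, and no filter on low counts also gave 0. For BAT ablation against intact BAT the count was 2 with DESeq2, the rat-number set term, that term with the length gradient, and the linear rat number, and 1 with voom and in the 17 lower-numbered rats alone. The 2 were Egr1 and Atf3 except with the linear rat number, which called Egr1 and Myc (0.62, adjusted p 0.0452) and not Atf3 (0.65, adjusted p 0.192). Of the 17347 genes the set term with the gradient called 1295 and the linear rat number 4042. The 17 rats alone gave 2033 of 17890 genes. For denervation against intact BAT it was 1 with DESeq2, voom and the set term. For leptin against vehicle it was 1 with DESeq2, the set term, that term with the length gradient, and the linear rat number, and 3 with voom. There the term with the gradient called 428, the linear rat number 1069 and voom 10526 of the 17347 genes. For denervation with leptin against vehicle it was 1 with voom. Across the 4 groups it was 1 with DESeq2, the set term and the linear rat number, and 3 with voom. In that test DESeq2 called 1245 of 30562 genes, and the linear rat number 6803 and voom 12535 of 17347. With each library left out, over both models, the counts ran between 0 and 3 for ablation, 0 and 1 for denervation, 0 and 1 for leptin, and 0 and 2 across the groups. Without the 4 intact leptin rats of lowest number, which left 2 rats in that group, none of the 5 genes was called. That fit called 2, 1 and 0 of 18495 genes for leptin, ablation and denervation. With so few calls among all genes, the 0 of 5 cannot show whether the family differences rest on those 4 rats. The Egr1 log2 differences were then -1.51, 1.10 and 1.33 in that order, smaller than as designed and in the same directions. Of the 10 gene pairs 4 passed, 1 without the 2 farthest libraries of each pair, and between 2 and 5 with a library left out. The cause was not tested.

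Same-numbered libraries of different groups correlated at 0.235 on average over 36 pairs (range -0.340 to 0.730), against -0.0437 for libraries with other numbers. Of the pairs 24 were above 0.1, and 9 of 24 libraries correlated best with their own number. Since some pairs were at or below 0.1 and the labels name no pairing, the numbers were not taken to pair the libraries. Replicate 6 lies in the higher-numbered set in every group, and replicates 1 to 3 in the lower set. Replicate number thus partly follows the set, and a replicate block partly carries the set term. The part of the set in these correlations was not tested. With a replicate block 1 gene was called for ablation (Atf3, 1.39, adjusted p 0.0378), 1 for denervation (Egr1, 2.11, adjusted p 0.0411), 1 for leptin (Egr1, -2.01, adjusted p 0.0111) and 1 across the groups. Of all 17347 genes it called 1021, 512, 3635 and 1665. The block together with the set term gave 2, 1, 1 and 1, beside 2808, 977, 912 and 1322 of the 17347 genes.

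Several differences that missed the threshold as designed changed sign between settings. For leptin against vehicle Jun was 0.026 with no scaling, 0.10 with the set term, 0.055 with the length gradient added, 0.043 with the linear rat number, 0.0066 in the 17 rats and 0.24 without the 4 leptin rats. Myc was 0.038 with no scaling and 0.084 with voom. For denervation against intact BAT Jun was -0.13 without the 4 rats and Myc -0.046 with voom. Against vehicle, ablation gave -0.13 for Jun and -0.56 for Atf3 with voom. That Atf3 difference was 0.24 as designed and 1.19 in the 17 rats (edgeR unadjusted p 0.0085, adjusted p 0.995), so it depended strongly on the setting. Denervation gave Egr1 0.032 with no scaling, 0.41 with voom and 0.10 with the replicate block, Atf3 0.063 with no scaling and 0.022 with the set term and gradient, Jun -0.18 with voom, and Myc -0.093 in the 17 rats. For ablation against denervation Fos was 0.0031 with the upper quartile, 0.10 with the set term, 0.18 with the gradient added and 0.45 in the 17 rats. Atf3 kept its sign there but ran between 0.18 with the linear rat number and 1.32 in the 17 rats (edgeR adjusted p 0.712 and 0.409). With a library left out, in either model, leptin against vehicle ran between -0.22 and 0.18 for Jun and -0.19 and 0.072 for Myc, and denervation against intact BAT between -0.00016 and 0.33 for Jun. Ablation against vehicle ran between -0.84 and 0.077 for Fos. Denervation against vehicle ran between -0.77 and 0.23 for Atf3, -0.51 and 0.10 for Egr1, and -0.11 and 0.21 for Myc. Ablation against denervation ran between -0.66 and 0.063 for Egr1, -0.62 and 0.45 for Fos, and -0.014 and 0.33 for Jun. The cause was not tested. With 6 rats a group, an Egr1 or Atf3 interval spans a fold range of several times, so a missed threshold does not show equal levels.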
